A study of Homo sapiens with 6 samples.

Results

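NOTUM, SFRP5 and ISM1 are 3 genes for secreted proteins that act on signals outside the cell, 2 of them on Wnt ligands and 1 on Nodal. They are 3 of the 8529 genes in the table of mRNA levels, and each had a lower level in colorectal cancer cells grown on the stiffer of the 2 hydrogels. They were chosen by these levels, as secreted inhibitors already known to differ between the hydrogels, so their difference is given as a description and was not tested. The cells were SW480, an established line from a human colorectal adenocarcinoma, labelled as wild type with no added gene or knockdown. They were grown for 72 h in plates coated with a hydrogel of 2 kPa (soft) or 25 kPa (stiff), kilopascals being a unit of stiffness, and 3 libraries were made at each stiffness. The model is limited to 1 cancer line on a coated surface without stromal cells, and the labels do not say whether the 3 wells of a group came from separate cultures, so the p-values below measure the spread between these libraries, which may be technical.

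Wnt ligands are lipid-modified proteins that bind Frizzled receptors and the co-receptors LRP5 and LRP6, and in the intestine they keep the stem cells of the crypt dividing by stabilising beta-catenin. Cells limit the signal from outside with decoys, receptor blockers and enzymes. NOTUM is a secreted carboxylesterase that removes the palmitoleate group a Wnt ligand needs to bind Frizzled, and it is itself switched on by beta-catenin in the intestine. SFRP5 is a secreted Frizzled-related protein, whose cysteine-rich domain resembles that of the receptor and binds Wnt ligands. ISM1, or isthmin 1, is a secreted protein with a thrombospondin repeat and an AMOP domain that has been reported to inhibit Nodal, a ligand of the activin type. SW480 cells are known to carry a truncating mutation of APC, so their beta-catenin is stabilised without a Wnt ligand.

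All 3 genes encode proteins that enter the secretory pathway, and their coding sequences open with the leucine-rich stretch typical of a signal peptide. The first 60 coding nucleotides are shown for that reason, read from GENCODE 29 (GRCh38), with the in-frame CTG codons for leucine in capitals.
NOTUM: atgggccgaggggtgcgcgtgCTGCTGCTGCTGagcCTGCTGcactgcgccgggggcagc
SFRP5: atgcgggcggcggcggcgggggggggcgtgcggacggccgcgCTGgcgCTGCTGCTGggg
ISM1: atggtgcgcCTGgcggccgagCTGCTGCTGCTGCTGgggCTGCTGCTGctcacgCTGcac
Of these 20 codons, 10 are CTG in ISM1, 6 in NOTUM and 4 in SFRP5, and the longest unbroken runs are 5, 4 and 3 codons. The median over the 8167 genes of the table with a coding sequence was 1. At least as many CTG codons were found in 0.0612% of those genes for ISM1, 1.53% for NOTUM and 6.00% for SFRP5. These shares describe the sequences and say nothing about the hydrogels.

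The genes lie on different chromosomes and differ in size. In the GENCODE 29 annotation of GRCh38, NOTUM is on the reverse strand of chromosome 17 from 81952507 to 81961840, with 11 exons and a coding sequence of 1491 nt. SFRP5 is on the reverse strand of chromosome 10 from 97766751 to 97771952, with 3 exons and 954 nt. ISM1 spans 78881 bp on the forward strand of chromosome 20 from 13221771 to 13300651, with 6 exons and 1395 nt. No annotated gene overlaps NOTUM or SFRP5. ISM1 overlaps 2 genes on the opposite strand, ISM1-AS1 and AL050320.1. Overlap was read from whole gene spans, and whether exons are shared was not checked. Whether the counting used strand is not given in the sources used here, so reads from any shared exon might not be told apart.

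The promoter of SFRP5 is shown because SFRP5 is the 1 gene of the 3 found in the RefSeq promoter table used here, where NOTUM and ISM1 were not matched. The stretch is the 250 bases before the RefSeq start site, chr10:97772000-97772249 of GRCh38.p14 on the reverse strand, with GC boxes (GGGCGG) and the CCAAT box in capitals, both searched on either strand.
SFRP5 promoter: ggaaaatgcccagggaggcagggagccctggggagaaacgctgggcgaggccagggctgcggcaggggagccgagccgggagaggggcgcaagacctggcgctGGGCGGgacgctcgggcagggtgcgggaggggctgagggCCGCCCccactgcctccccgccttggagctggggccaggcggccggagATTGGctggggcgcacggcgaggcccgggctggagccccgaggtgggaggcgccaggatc
Its GC content was 76.8%, higher than that of 88.3% of the promoters of genes in the table. It holds 2 GC boxes, which begin at −147 and −108 counted from the start site, and 1 CCAAT box on the opposite strand at −60. A GC box was present in 65.4% of the 8736 promoter windows of genes in the table, and a CCAAT box in 33.7%. The letters CTTTGA, the core read by TCF/LEF factors, were absent from this window and present in 7.94% of windows, while GGAATG, the core read by TEAD factors, was also absent and present in 9.91%. TATAAA was absent as well, and it was found in 5.93% of windows. These motifs do not overlap each other in the printed stretch.

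Levels are given in FPKM, fragments per kilobase of transcript relative to all mapped reads, which corrects for transcript length. An FPKM value holds no read number, so the depth behind it is unknown and the errors below are the spread between libraries. The FPKM summed to between 201030 and 235728 in the libraries at 2 kPa and between 231714 and 263028 at 25 kPa. Within a group, pairs of libraries had a Pearson r of 0.974 to 0.988 on the log2 scale, computed over genes, which are no independent replicates. The epithelial keratin KRT18 was at 2611 to 3358 FPKM and EPCAM at 64.7 to 101 FPKM, and the intestinal marker VIL1 at 13.95 to 23.51 FPKM. Of 15 epithelial markers 10 were in the table, so absence from it was not confined to markers of other cell types. Among these 10, 7 had a mean of at least 1 FPKM, while CDX2, CDX1 and KRT20 were at or under 0.79, 0.24 and 0.10 FPKM. Of 10 fibroblast markers 3 were in the table, none above 0.55 FPKM, and 0 of 5 endothelial markers and 2 of 6 leukocyte markers were in it. GAPDH, usually abundant, was listed at 0.32 to 3.35 FPKM, and which transcripts a value covers is not given. Ranks, shares and orders of abundance between genes are therefore those of the listed FPKM. They may not hold for the RNA in the cells.

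NOTUM was the most abundant of the 3 genes in every library, followed by SFRP5 and then ISM1. At 2 kPa it was at 75.98, 94.29 and 71.48 FPKM in replicates 1, 2 and 3. At 25 kPa it was at 38.95, 44.07 and 32.24 FPKM in replicates 1, 2 and 3. The 2 groups did not overlap, and the lowest soft library was 1.62 times the highest stiff one, a gap of 27.4 FPKM. Its mean was 80.6 ± 12.1 FPKM on the soft gel and 38.4 ± 5.93 FPKM on the stiff one (SD, n = 3 each), so the level at 25 kPa was 47.7% of that at 2 kPa. On the scale of log2(FPKM + 1), the difference of 25 kPa minus 2 kPa was −1.05 with a limma standard error of 0.15. NOTUM ranked 415th of 8529 genes by mean level at 2 kPa and 801st at 25 kPa.

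SFRP5 had the tightest values at 2 kPa. They were 22.78, 24.15 and 25.72 FPKM in replicates 1, 2 and 3 at 2 kPa. The corresponding libraries at 25 kPa were at 9.74, 13.23 and 12.86 FPKM. All 3 stiff libraries lay below all 3 soft ones, with the highest stiff library 9.55 FPKM under the lowest soft one. The mean was 24.2 ± 1.47 FPKM at 2 kPa and 11.9 ± 1.92 FPKM at 25 kPa (SD, n = 3 each), a ratio of 2.03 between soft and stiff, and the log2 difference was −0.97 with a standard error of 0.14. The coefficient of variation was 6.07% at 2 kPa and 16.1% at 25 kPa, against 15.0% and 15.4% for NOTUM. By level, SFRP5 ranked 1125th of all genes at 2 kPa and 2011th at 25 kPa.

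ISM1 had the largest difference of the 3. It was at 21.68, 23.50 and 17.05 FPKM in replicates 1, 2 and 3 at 2 kPa. At 25 kPa the libraries held 7.74, 7.51 and 8.76 FPKM. The groups were again apart, the lowest soft library at 1.95 times the highest stiff one. Mean levels of 20.7 ± 3.33 FPKM at 2 kPa and 8.0 ± 0.665 FPKM at 25 kPa (SD, n = 3 each) gave a ratio of 2.59 between soft and stiff, and the log2 difference was −1.26 with a standard error of 0.15. ISM1 ranked 1291st by level at 2 kPa and 2615th at 25 kPa. In these bulk libraries, fewer cells that express a gene and less of its RNA per cell cannot be told apart, for any of the 3 genes.

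**Figure D1:**
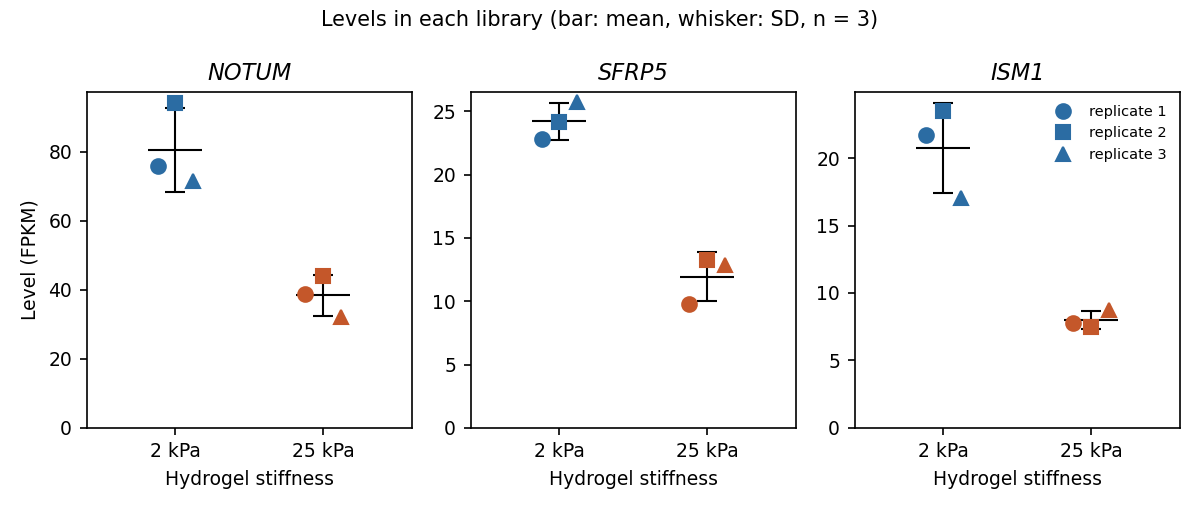
Level in FPKM of NOTUM, SFRP5 and ISM1 (vertical axes, each starting at 0) in the 3 libraries at 2 kPa (blue) and the 3 at 25 kPa (orange), with the replicate number as the symbol, the mean as a bar and the SD as a whisker. In each panel the 3 stiff libraries lie below the 3 soft ones, with means of 38.4 against 80.6, 11.9 against 24.2 and 8.0 against 20.7 FPKM.

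Over all 8529 genes, the groups did not overlap with 25 kPa lower in 4.78%, and the 3 genes belong to that share by the way they were chosen. A difference below 0 was found in 40.4% of the table, one of −0.5 or lower in 2.78% and one of −0.9 or lower in 0.352%, or 30 genes. By limma, 10 genes (0.117%) had an adjusted p under 0.05 in either direction. Only 5 genes had a lower difference than ISM1, 10 than NOTUM and 17 than SFRP5. The middle of the table sat at a median difference of 0.05, with the 5th and 95th percentiles at −0.39 and 0.48. The differences of the 3 genes were below 0 in all 13 other settings of scaling, pseudocount, GC correction, replicate block and left-out libraries that were tried. They ranged from −1.17 to −0.93 for NOTUM, from −1.09 to −0.84 for SFRP5 and from −1.39 to −1.17 for ISM1. The replicate block repeats the reported differences by design, because both groups hold the same replicate numbers.

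**Figure D2:**
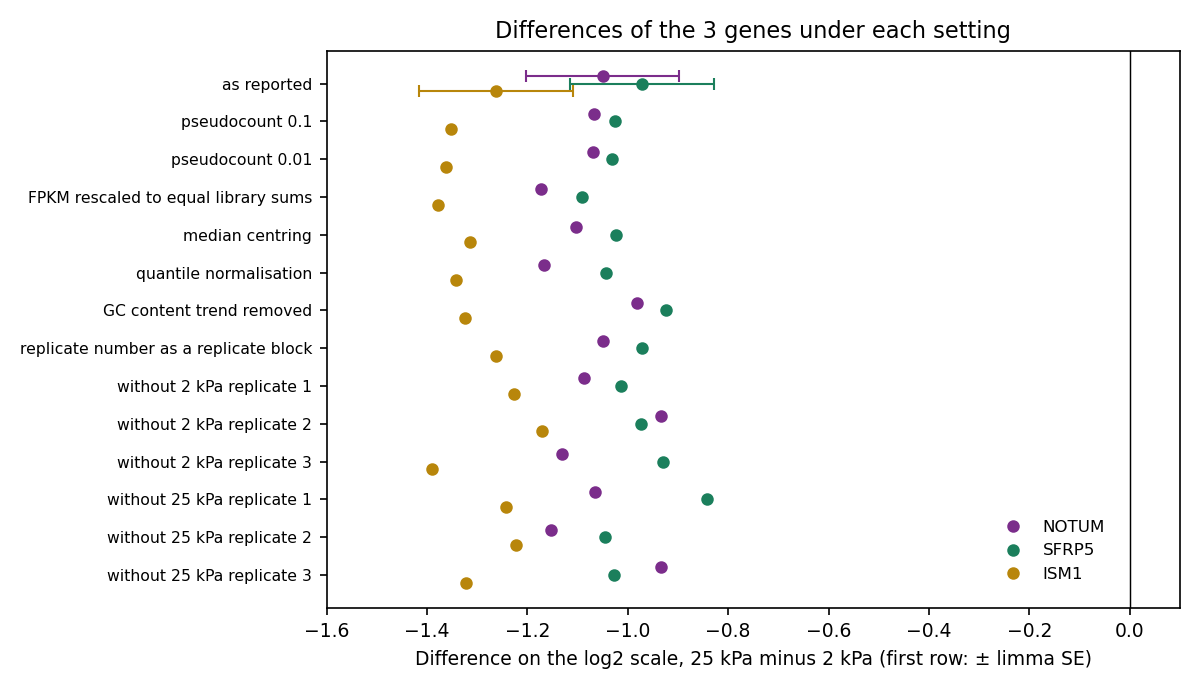
Difference of NOTUM, SFRP5 and ISM1 between 25 kPa and 2 kPa on the log2 scale (horizontal axis) under the reported setting, with its limma standard error as a whisker, and under the 13 other settings (rows). Every point lies below 0, and the point nearest to it is SFRP5 without 25 kPa replicate 1, at −0.84. The row of the replicate block repeats the reported differences by design.

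Taken within each library, the ratios between the genes overlapped between the 2 groups for all 3 pairs. The ratio of NOTUM to SFRP5 was 3.34, 3.90 and 2.78 at 2 kPa and 4.00, 3.33 and 2.51 at 25 kPa, with means of 3.34 ± 0.563 and 3.28 ± 0.747 (SD, n = 3). These ranges overlap almost completely. For NOTUM to ISM1 the ratio was 3.50, 4.01 and 4.19 at 2 kPa and 5.03, 5.87 and 3.68 at 25 kPa. The ratio of SFRP5 to ISM1 was 1.05, 1.03 and 1.51 at 2 kPa and 1.26, 1.76 and 1.47 at 25 kPa. Both ratios to ISM1 had a higher mean at 25 kPa, 4.86 ± 1.1 against 3.90 ± 0.357 and 1.5 ± 0.253 against 1.20 ± 0.271 (SD, n = 3), and in both the 2 groups overlapped. The libraries of SFRP5 and ISM1 overlapped at 2 kPa, from 22.78 to 25.72 and from 17.05 to 23.50 FPKM, and did not at 25 kPa. Together the 3 genes summed to 114 to 142 FPKM in the soft libraries and 53.9 to 64.8 FPKM in the stiff ones.

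By the same FPKM scale, NOTUM and SFRP5 can be set among the extracellular Wnt inhibitors, of which 12 of the 20 listed were in the table. SFRP4 and FRZB, 2 other proteins of the Frizzled-related family, were at or under 0.17 and 0.40 FPKM in every library, so SFRP5 was the abundant member of its family among those analysed here. SFRP1, SFRP2 and WIF1 were not analysed here. The most abundant inhibitor was APCDD1, a membrane glycoprotein that binds Wnt and LRP proteins, at 303 ± 64.8 FPKM (SD, n = 3) at 2 kPa. NOTUM came next at 2 kPa and IGFBP4 next at 25 kPa, but the libraries of NOTUM, at 71.48 to 94.29 FPKM in the first group, lay within those of IGFBP4, at 31.09 to 121.33 FPKM, so that their order is not set apart from the spread. SFRP5 came after DKK3 in both groups, whose libraries ranged across those of SFRP5 at 2 kPa. NOTUM and SFRP5 together made up 23.2%, 17.8% and 21.4% of the summed level of the 12 inhibitors in the soft libraries. In the stiff libraries they made up 14.2%, 15.8% and 12.6%. These shares did not overlap between the groups, which follows in part from choosing NOTUM and SFRP5 by their lower levels at 25 kPa. The share of APCDD1 was 56.0% to 64.3% at 2 kPa and 52.5% to 64.7% at 25 kPa.

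Of the other 10 extracellular Wnt inhibitors, 5 were lower and 5 higher at 25 kPa, with a median difference of −0.02, which lay between −0.13 and 0.06 with each library left out in turn. Among the 7 with a mean of at least 1 FPKM, 5 were lower and 2 higher, with a median of −0.27 beside 0.08 over the 5808 genes at that level. By limma over all genes, 0 of the 10 had an adjusted p under 0.05 (0.0469% of all genes were called lower and 0.0703% higher). At an unadjusted p under 0.05, 2 were lower and 2 higher (3.19% and 6.96% of all genes). APCDD1 was at 245.36, 373.34 and 291.58 FPKM at 2 kPa and 180.52, 234.20 and 227.43 FPKM at 25 kPa. It was lower in every stiff library than in any soft one, with a difference of −0.49 (standard error 0.18, limma adjusted p = 0.405). DKK1, which blocks LRP5 and LRP6, lay the other way, at 4.17, 4.25 and 2.64 FPKM at 2 kPa and 9.92, 5.07 and 5.13 FPKM at 25 kPa (difference 0.68, standard error 0.28, limma adjusted p = 0.453). Its groups did not overlap either, as for 11.2% of all genes with 25 kPa higher. DKK3, a relative of DKK1, ranged from 15.39 to 40.43 FPKM at 2 kPa and from 12.71 to 18.50 FPKM at 25 kPa, and IGFBP4, a binding protein of insulin-like growth factors also reported to inhibit Wnt, from 42.46 to 73.52 FPKM at 25 kPa. The groups overlapped for both.

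**Figure D3:**
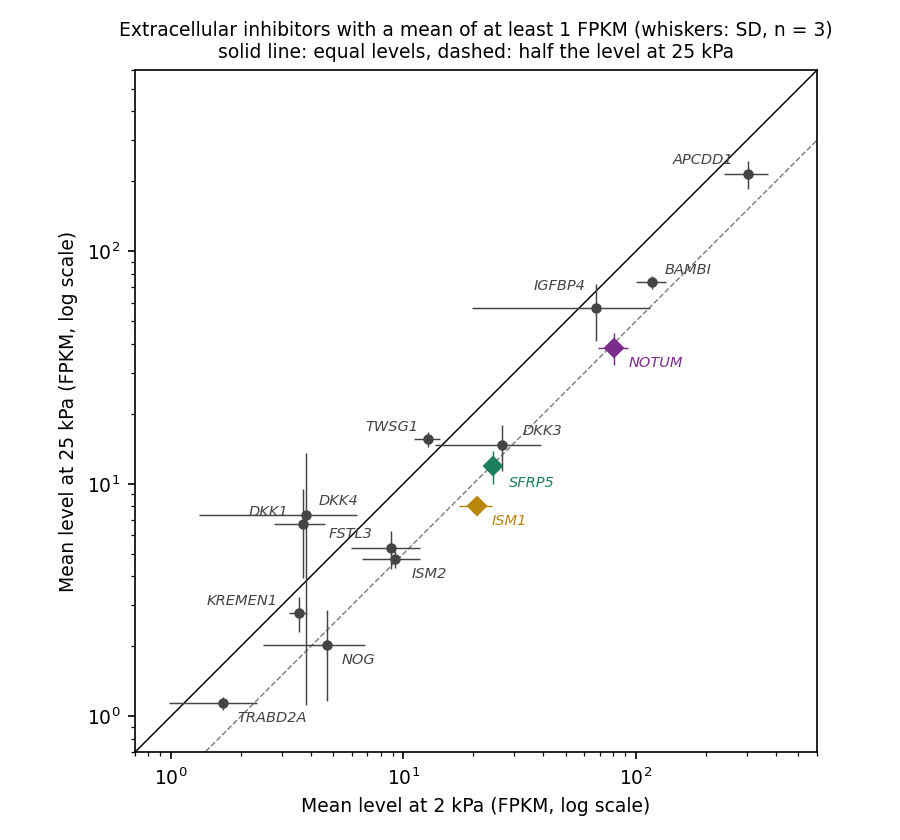
Mean level in FPKM at 2 kPa (horizontal, log scale) and at 25 kPa (vertical, log scale) of the extracellular inhibitors of Wnt, Nodal, activin and BMP with a mean of at least 1 FPKM, with the SD over 3 libraries as whiskers, the solid line at equal levels and the dashed line where the stiff level is 50% of the soft one. NOTUM (47.7%) and SFRP5 (49.3%) lie just under the dashed line, NOG (43.2%) and ISM1 (38.6%) lie further below it, ISM2 (51.3%) lies just above it, and DKK1, DKK4 and TWSG1 lie above the solid line.

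The measured Wnt ligands, the class on which NOTUM and SFRP5 act, differed widely in level. Of 22 genes listed for ligands and their secretion, 7 were in the table, and WNT7A, WNT8B and WNT4 stayed at or under 0.59 FPKM. WNT6 was the most abundant, at 32.42, 53.97 and 33.11 FPKM at 2 kPa and 24.44, 33.40 and 26.01 FPKM at 25 kPa. The groups overlapped in WNT6, through 25 kPa replicate 2 (difference −0.47, standard error 0.21, limma adjusted p = 0.495). WNT10A was at 10.83, 14.76 and 13.14 FPKM at 2 kPa and 4.44, 0.96 and 6.88 FPKM at 25 kPa. Its difference of −1.66 was the lowest of all 8529 genes on this scale, with a standard error of 0.44, and the gene was not called over all genes (limma adjusted p = 0.234). Its value in 25 kPa replicate 2 was the lowest of the 6 libraries by far. Without that library the difference of WNT10A was −1.08. WLS, which carries Wnt ligands to the cell surface, was at 4.51, 3.92 and 6.52 FPKM at 2 kPa and 2.37, 2.66 and 3.56 FPKM at 25 kPa, also without overlap (difference −0.62, standard error 0.24, limma adjusted p = 0.426). WNT9A ranged from 1.58 to 3.82 FPKM over both groups. Of the 7 genes for ligands and their secretion, 6 were lower at 25 kPa, with a median of −0.38. The median was −0.22 without 2 kPa replicate 2, −0.23 without 2 kPa replicate 1 and −0.54 over the 4 genes with a mean of at least 1 FPKM. By limma, 2 were lower at an unadjusted p under 0.05 (3.19% of all genes), and 0 passed the adjusted threshold.

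The receptors lay near the middle of the table. Among 16 receptors and agonists, 13 were higher and 3 lower at 25 kPa, with a median of 0.11, and with all libraries scaled to equal sums 10 were higher and 6 lower. Without 2 kPa replicate 3, 9 were higher and the median was 0.02, and without 2 kPa replicate 2, 14 were higher and it was 0.19. None had an unadjusted p under 0.05 by limma (3.19% of all genes were lower and 6.96% higher), and 0 passed the adjusted threshold. With so few genes, 0 is near those shares. FZD7, RYK and FZD1 were the most abundant, at 9.59 to 15.09, 8.37 to 14.86 and 4.99 to 7.99 FPKM. FZD9 was the one receptor whose groups did not overlap, at 3.28, 3.33 and 3.42 FPKM at 2 kPa and 2.73, 2.61 and 1.96 FPKM at 25 kPa (limma adjusted p = 0.632). Over all genes, 4.78% were lower without overlap. LGR5, the receptor for R-spondins on crypt stem cells, was not analysed here. Inside the cell, 14 of 19 genes of the beta-catenin pathway were lower at 25 kPa, with a median of −0.09. Without 2 kPa replicate 2 the count was 9 of 19 and the median 0.01, while without 2 kPa replicates 1 or 3 the median was −0.14 or −0.13. None of these 19 had an unadjusted p under 0.05 by limma (3.19% of all genes were lower and 6.96% higher), and 0 passed the adjusted threshold. The most abundant were NKD1, a feedback inhibitor of Dishevelled, CXXC5, which binds Dishevelled, and the corepressor CTBP1. CXXC5 was at 23.76 to 34.31 and 19.22 to 24.08 FPKM, and CTBP1 at 19.95 to 25.44 and 23.16 to 24.41 FPKM, with overlap in both. CTNNB1, the gene for beta-catenin, was at 17.25 to 27.34 FPKM at 2 kPa and 18.00 to 22.46 FPKM at 25 kPa, which overlap. CTNNBIP1, an inhibitor that binds beta-catenin, was at 4.00 to 5.52 FPKM at 2 kPa and 5.61 to 7.29 FPKM at 25 kPa without overlap (difference 0.28, limma adjusted p = 0.695). That pattern was found in 11.2% of all genes.

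NOTUM is also a target gene of beta-catenin, and the other 20 measured targets of the intestinal list were split, 10 lower and 10 higher at 25 kPa, with a median of −0.01, which became −0.16 without 2 kPa replicate 1 and 0.04 over the 15 targets with a mean of at least 1 FPKM. Of these 20, 4 were lower and 2 higher at an unadjusted p under 0.05 (3.19% and 6.96% of all genes), and 0 passed the adjusted threshold of limma. The groups did not overlap for ASCL2, SP5, JAG1 and APCDD1, which were lower at 25 kPa, or for BIRC5 and DKK1, which were higher. Over all genes, 4.78% were lower and 11.2% higher without overlap. ASCL2, a transcription factor of crypt stem cells, came closest to NOTUM, at 24.05, 25.94 and 28.49 FPKM at 2 kPa and 11.78, 16.20 and 11.62 FPKM at 25 kPa. Its lowest soft library was above its highest stiff one, and its difference was −0.95 (standard error 0.15, limma adjusted p = 0.0759, range over the settings 0.0408 to 0.333). SP5, JAG1 and APCDD1 had differences of −0.50, −0.58 and −0.49. AXIN2 and NKD1, which are read as general reporters of the pathway, were at 3.78 to 7.73 and 27.78 to 52.36 FPKM at 2 kPa and at 4.00 to 4.44 and 24.88 to 31.43 FPKM at 25 kPa. Both overlapped between the groups, as did MYC, at 55.84 to 81.04 FPKM at 2 kPa and 52.79 to 69.29 FPKM at 25 kPa. CCND1, the most abundant target, was at 291.41 to 451.51 and 400.18 to 486.36 FPKM and overlapped as well. BIRC5, an inhibitor of apoptosis that is also made at mitosis, was at 27.65, 22.64 and 23.87 FPKM at 2 kPa and 44.56, 37.94 and 36.62 FPKM at 25 kPa (difference 0.66, standard error 0.13, limma adjusted p = 0.113).

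**Figure D4:**
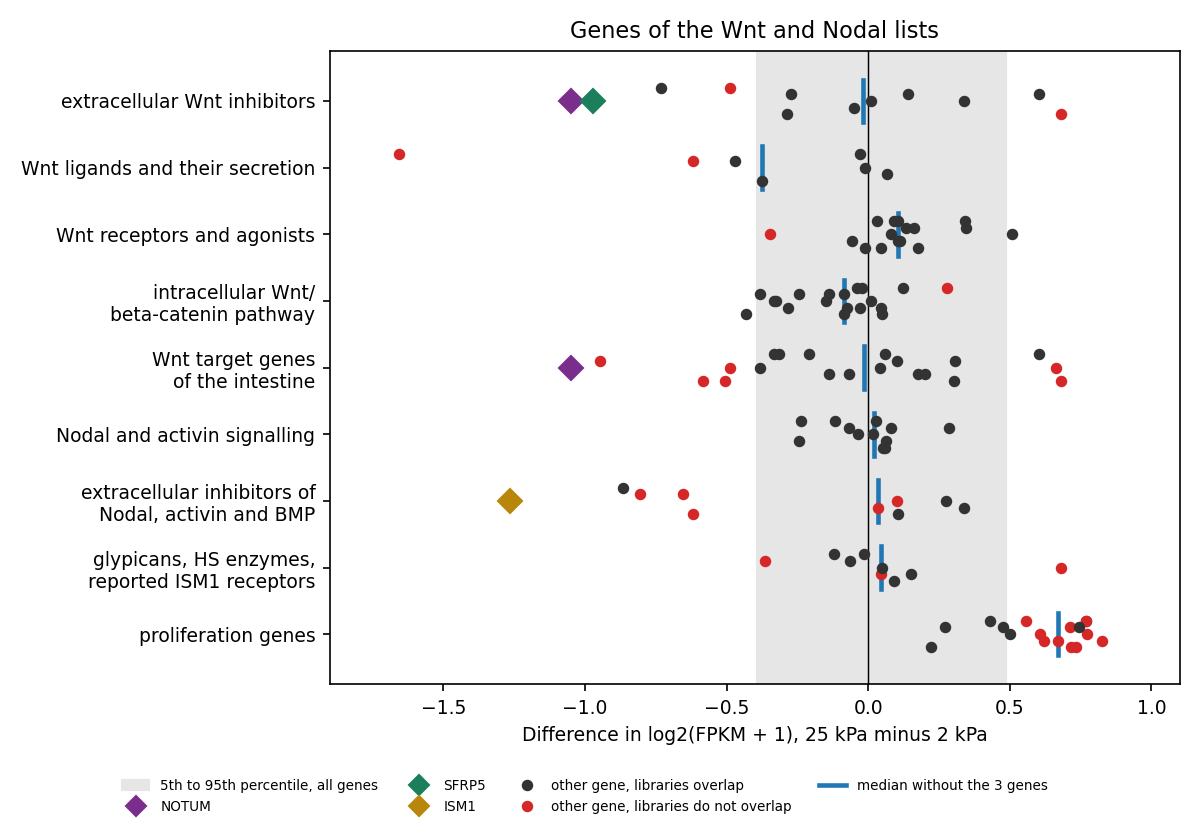
Difference in log2(FPKM + 1), 25 kPa minus 2 kPa (horizontal axis), of each measured gene of 9 lists (rows), with NOTUM, SFRP5 and ISM1 as diamonds, genes whose groups do not overlap in red, the list median without the 3 genes as a blue bar and the 5th to 95th percentile of all genes in grey. The diamonds of the 3 genes lie left of −0.9, with NOTUM drawn in both lists that hold it. The medians of their lists lie between −0.02 and 0.04. Over genes with a mean of at least 1 FPKM, the medians of the inhibitor lists were −0.27 and −0.65. WNT10A is the point furthest to the left, at −1.66.

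The signals that ISM1 is reported to oppose were close to the lower end of the table. NODAL was at 0.22, 0.36 and 0.49 FPKM at 2 kPa and 0.36, 0.30 and 0.10 FPKM at 25 kPa, and TDGF1, its co-receptor, stayed between 0.44 and 0.84 FPKM. Among 12 genes of Nodal and activin signalling, 5 were lower and 7 higher at 25 kPa, with a median of 0.02 that became −0.05 when all libraries were scaled to equal sums and lay between −0.05 and 0.07 with 1 library left out. None had an unadjusted p under 0.05 by limma (3.19% of all genes were lower and 6.96% higher), and 0 passed the adjusted threshold. With 12 genes, 0 is near those shares. The most abundant of them were DRAP1, a transcriptional corepressor, at 94.82 to 126.18 and 120.49 to 152.28 FPKM, INHBB, a subunit of activin B, at 22.89 to 37.08 and 22.14 to 28.95 FPKM, and SMAD7, an inhibitor of the pathway, at 3.33 to 5.67 and 3.44 to 5.61 FPKM. All 3 overlapped between the groups.

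Among the extracellular inhibitors of Nodal, activin and BMP, BAMBI, a membrane pseudoreceptor for ligands of this family, was the most abundant. By mean level ISM1 came next at 2 kPa, whereas at 25 kPa it came after TWSG1, a modulator of BMP, at 15.6 ± 1.16 against 8.0 ± 0.665 FPKM (SD, n = 3). The other 9 measured genes had 4 lower and 5 higher at 25 kPa and a median of 0.04. Among the 5 of them with a mean of at least 1 FPKM, 4 were lower and the median was −0.65, beside 0.08 over all genes at that level. At an unadjusted p under 0.05, 4 of the 9 were lower and 1 higher (3.19% and 6.96% of all genes), and 0 passed the adjusted threshold of limma. ISM2, the paralogue of ISM1, was at 6.93, 12.01 and 8.78 FPKM at 2 kPa and 4.57, 5.21 and 4.45 FPKM at 25 kPa. The groups did not overlap, and the difference was −0.81 (standard error 0.21, limma adjusted p = 0.227). The levels of ISM1 and ISM2 are uncertain to the extent that the authors' counting could split reads between paralogues. BAMBI was at 101.42, 114.18 and 135.80 FPKM at 2 kPa and 72.63, 79.04 and 69.40 FPKM at 25 kPa, again without overlap (difference −0.65, standard error 0.13, limma adjusted p = 0.138). FSTL3, which binds activins, was at 7.11 to 12.20 FPKM at 2 kPa and 4.68 to 6.41 FPKM at 25 kPa (difference −0.62, limma adjusted p = 0.405). NOG, which binds BMP ligands, had the lowest difference of the 9, −0.87, but overlapped between the groups (limma adjusted p = 0.434). TWSG1 was at 11.82 to 14.63 and 14.25 to 16.39 FPKM, which overlap. DAND5 and FSTL1 were higher at 25 kPa without overlap at levels of at most 0.16 and 0.09 FPKM, and the difference of FSTL1 changed sign in 2 of 14 settings. LEFTY1, LEFTY2 and FST were not analysed here.

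Heparan sulfate chains on glypicans and syndecans hold Wnt ligands and their inhibitors at the cell surface, and HSPA5 and an integrin with the ITGB5 subunit have been reported to bind ISM1. Of 9 measured genes of this kind, 4 were lower and 5 higher at 25 kPa. Their median was 0.04, but 0.31 without 2 kPa replicate 2 and −0.20 without 2 kPa replicate 3. By limma 1 was lower and 1 higher at an unadjusted p under 0.05 (3.19% and 6.96% of all genes), and 0 passed the adjusted threshold. HSPA5 was at 114.12 to 208.73 FPKM at 2 kPa and 123.08 to 188.80 FPKM at 25 kPa, and ITGB5 at 13.50 to 26.36 and 18.62 to 24.05 FPKM, so neither reported receptor was separated by stiffness. SDC4, a syndecan, also overlapped, at 80.21 to 116.27 and 85.50 to 100.10 FPKM. EXT1, an enzyme that extends the heparan sulfate chain, was at 5.47, 8.47 and 5.52 FPKM at 2 kPa and 11.76, 9.26 and 11.61 FPKM at 25 kPa (difference 0.68, standard error 0.20, limma adjusted p = 0.267). NDST1, which modifies the chain, lay the other way, at 0.99 to 1.29 and 0.53 to 0.80 FPKM (difference −0.37, limma adjusted p = 0.472). EXT2, the partner of EXT1, did not overlap at 42.13 to 43.34 and 43.36 to 44.40 FPKM, a difference of 0.04 that changed sign in 4 of 15 settings.

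The genes whose pattern over the 6 libraries was most like that of each gene were sought among the 581 genes with a mean of at least 1 FPKM and a difference of at least 0.5 in size. Every correlation here is raised by the split between the 2 groups that all these genes share, over 6 libraries in all. FGF3, a fibroblast growth factor, followed NOTUM with a Pearson r of 0.999 on the log2 scale. Its levels were 69.27, 79.70 and 67.71 FPKM at 2 kPa and 43.84, 47.53 and 38.08 FPKM at 25 kPa, with the order of the 6 libraries the same as for NOTUM. DDR1, a receptor for collagen (r = 0.975), KLK6, a secreted protease (r = 0.973), SLC1A5, a glutamine transporter (r = 0.972), and KRT13, a keratin (r = 0.969), came next. For SFRP5 the closest were ARG2, a mitochondrial arginase (r = 0.989), CALHM3, an ion channel subunit (r = 0.984), C5orf66 (r = 0.983), PSEN2, a subunit of gamma-secretase (r = 0.977), and GRK6, a kinase of G protein-coupled receptors (r = 0.977). ISM1 was followed most closely by RTN2, a reticulon (r = 0.986), and CRIP2, a LIM domain protein (r = 0.974), with CDA, cytidine deaminase (r = 0.971), and PSD3 (r = 0.963) also among the first 5. Among themselves the 3 genes had an r of 0.940 for NOTUM and ISM1, 0.929 for SFRP5 and ISM1 and 0.906 for NOTUM and SFRP5. These are lower than the values above, which are the highest of 581. For NOTUM, ISM1 ranked 19th and SFRP5 36th of the 581. For SFRP5, ISM1 ranked 27th and NOTUM 42nd, and for ISM1, NOTUM ranked 17th and SFRP5 19th.

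Base composition moved with the difference across the table, so it is given beside that of the 3 genes. The median difference was 0.16 in the fifth of genes with the lowest GC content of the transcript and −0.05 in the fifth with the highest. The transcripts of NOTUM and SFRP5 have a GC content of 66.5% and 62.8%, and that of ISM1 49.6%. Genes within 2 percentage points of NOTUM had a median of −0.06 over 384 genes, those near SFRP5 −0.05 over 789 and those near ISM1 0.06 over 1014. Non-overlapping lower levels were found in 10.2%, 9.89% and 3.45% of these neighbours. A difference at or below that of the gene itself was found in 0.260%, 0.507% and 0.0986% of them. The 3 genes were chosen with their low differences known, so these last shares are small by that choice and are no test. With each library's trend over GC content removed, the differences were −0.98 for NOTUM, −0.92 for SFRP5 and −1.32 for ISM1.

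**Figure D5:**
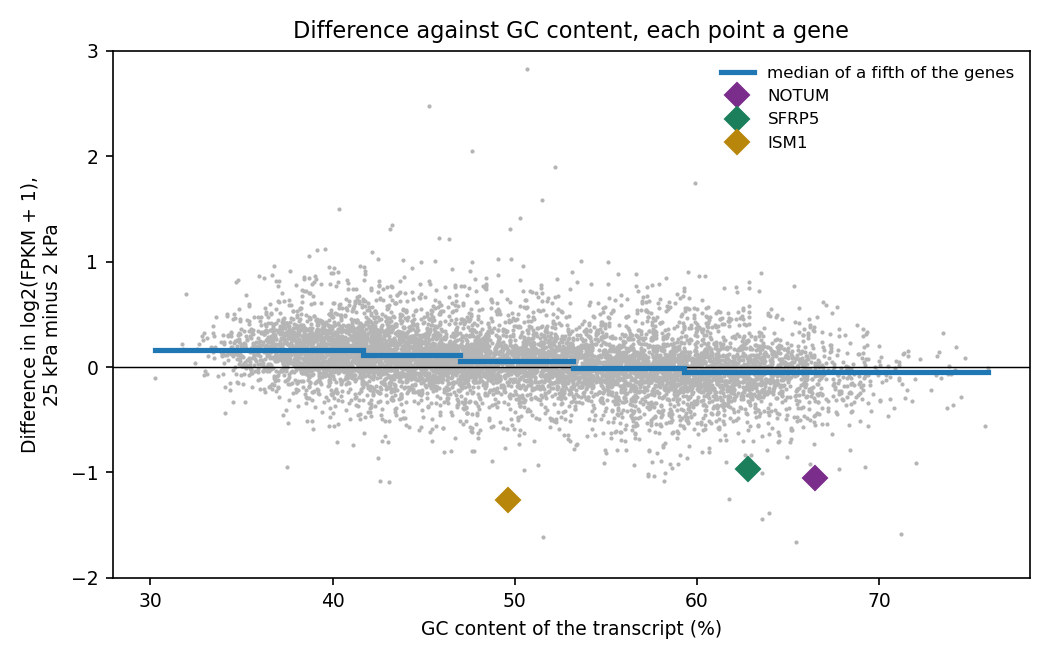
Difference in log2(FPKM + 1), 25 kPa minus 2 kPa (vertical axis), against the GC content of the transcript in percent (horizontal axis) for the 8201 genes with a GC content, each a grey point, with the median of each of 5 equal groups of genes by GC content as a blue line. The medians run from 0.16 at low GC content to −0.05 at high GC content, and NOTUM, SFRP5 and ISM1 lie at −1.05, −0.97 and −1.26.

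Genes of proliferation lay on the opposite side to the 3 genes. All 17 measured were higher at 25 kPa, with a median difference of 0.67 that was 0.43 without 2 kPa replicate 3. Of these 17, 10 had an unadjusted p under 0.05 by limma and 10 did not overlap. The shares of all genes that were higher in these ways were 6.96% and 11.2%. The adjusted threshold of limma was passed by 0 of the 17. The most abundant were MCM2, CCNB1 and CDC20. The replication helicase subunit MCM2 was at 82.03 to 93.28 and 87.62 to 110.78 FPKM and overlapped. The mitotic cyclin CCNB1 was at 52.58 to 67.43 FPKM at 2 kPa and 90.09 to 103.15 FPKM at 25 kPa (difference 0.67, standard error 0.13, limma adjusted p = 0.108). Among the epithelial markers, KRT19 was lower at 25 kPa without overlap, at 909 to 1402 FPKM against 1448 to 1623 FPKM (difference −0.49, limma adjusted p = 0.537), as were the transcription factors ELF3 and CDX2, while EPCAM overlapped. Of the 10 measured epithelial markers, 7 were lower and 3 higher. Without overlap, 3 were lower and 0 higher, beside 4.78% and 11.2% of all genes. The summed level of the 10 measured epithelial markers was 4514 to 4830 FPKM at 2 kPa and 3712 to 4882 FPKM at 25 kPa. That of the 3 fibroblast markers was 0.31 to 0.56 and 0.49 to 1.11 FPKM, and that of the leukocyte markers CD14 and LYZ was 3.93 to 5.41 and 2.32 to 3.54 FPKM, with the other 4 leukocyte markers, PTPRC among them, not analysed here. The part of proliferation and of these markers in the levels of NOTUM, SFRP5 and ISM1 was not tested.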

How the data were processed

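RNA of SW480 cells was sequenced in 6 libraries, 3 at each stiffness, and each table column was assigned to its group from the sample labels, with 0 columns left over. The authors deposited FPKM for 8529 gene symbols in each library, without pooling. The submitters' processing notes name HISAT, StringTie, Bowtie2 and RSEM and the build hg18, with no role or version. The study's methods describe normalisation to FPKM, and also small RNA purification. DESeq2, which the methods name, was not run because FPKM are not counts. From the deposited FPKM, log2(FPKM + 1) was fitted with limma 3.58.1 in R 4.3.3 (eBayes with a variance trend, two-sided, Benjamini-Hochberg over all genes, threshold 0.05), with no scaling or filter. Other pseudocounts (0.1 and 0.01), scalings, a mean FPKM of at least 1, a GC correction (lowess span 0.3, 8201 genes), left-out libraries and a replicate block were alternatives. On simulated data, the fit called 87% of 200 genes given a log2 change of 1.5, 48.5% given a change of 1, and 0 of 8529 with none.

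NOTUM, SFRP5 and ISM1 and the gene lists were chosen with earlier results of these data known. Named genes are those of each list that passed, did not overlap between groups or were among its 3 most abundant, and the 5 most correlated with each of the 3, of which 1 is not reported here. DKK3, DKK4, WNT9A, ITGB5, AXIN2, CTNNB1, NOG, GAPDH and genes of low level or not analysed were named for their role after their values were seen. Coordinates and sequences were matched by symbol to GENCODE 29 (GRCh38) and RefSeq (GRCh38.p14), not to the authors' build.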

Additional observations from a re-analysis of the deposited data

How the results depend on the processing

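The differences of NOTUM, SFRP5 and ISM1 moved by less than the spread between libraries in all alternatives run. For the extracellular Wnt inhibitors and Wnt targets, the spread used was that of the list's median level, 0.38 and 0.32. Both median differences moved by less than this, but it is too wide to show that they are stable. The inhibitor median went from −0.02 to −0.27 over genes with a mean of at least 1 FPKM, and the sign of both medians varied. The number of genes called by limma did move. It was 10 as reported, 17 with a pseudocount of 0.1, 6 without a variance trend, 3 with the replicate number as a replicate block, 35 at an adjusted p under 0.1 and 866 at an unadjusted p under 0.05, and it ranged from 3 (without 25 kPa replicate 2) to 11 over the fits that leave out 1 library. The counts without 2 kPa replicate 1 and without 25 kPa replicate 1 were 5 each, and without 25 kPa replicate 3 it was 6. The cause was not tested. Same-numbered libraries deviated from their group means with correlations of 0.115, −0.267 and −0.125, which give no sign of pairing. With 3 libraries in each group, they cannot show that same-numbered wells were handled apart. Of genes at an unadjusted p under 0.05, 68.6% were higher at 25 kPa, but 42.7% with equal library sums, 49.9% with median centring, 51.1% with quantile normalisation and 50% with the GC trend removed. No scaling moved the median of all genes by over 0.07. Depth is unknown, so detection at low FPKM cannot be judged.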
